A study of Mus musculus with 6 samples.

Results

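The receptors for prolactin, growth hormone and leptin were followed with the kinase, the transcription factors and the feedback inhibitors that work beneath them, as 10 genes of the 24354 rows in a table of choroid plexus mRNA on ribosomes. The genes were the receptors Prlr, Ghr and Lepr, the kinase gene Jak2, the transcription factor genes Stat3, Stat5a and Stat5b, and the inhibitor genes Cish, Socs2 and Socs3. They were taken by gene symbol, and all 10 symbols were found. The set was chosen because Prlr had the largest rise from E16.5 to adult among genes detected at both ages, so the levels of Prlr are given as a description and were not tested. The other 9 genes were tested between the ages.

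TRAP, which recovers mRNA by pulling down ribosomes that carry a tagged subunit, had been applied to choroid plexus (ChP), the epithelial tissue in the brain ventricles that makes cerebrospinal fluid. Libraries from 3 adult samples (P60 by the labels) and 3 embryonic samples (E16.5) were compared, and there was no other group. Mice at both ages carried FoxJ1:cre and bacTRAP (EGFP:L10a), so that ribosomes were tagged in cells that had expressed Cre from the Foxj1 promoter, a promoter of cells with motile cilia. By the methods the adult mice were 8 weeks old, and each sample was a pool of lateral ventricle ChP from 3 mice or from 3 litters of embryos. GEO's design text instead lists 3 mice for each age, so the number of animals behind a library is not settled, and p values measure the spread between these samples only. Levels are FPKM, fragments scaled to transcript length and to the size of the library, and changes are differences of log2(FPKM + 1), adult minus E16.5. The table has 1 value per gene, so that long and short forms of a receptor could not be told apart.

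The receptors for prolactin, growth hormone and leptin belong to the class I cytokine receptors, which have no kinase of their own. Binding of the hormone activates JAK2 at the inner side of the receptor, JAK2 phosphorylates the receptor and STAT proteins, and the STATs move to the nucleus, STAT5A and STAT5B mainly after prolactin and growth hormone and STAT3 mainly after leptin. CIS (the product of Cish), SOCS2 and SOCS3 are made from genes that the STATs switch on, and they damp the receptor in return. The choroid plexus of rodents is known as a site rich in prolactin receptor and in short forms of the leptin receptor, which have been linked to the passage of these hormones from blood to cerebrospinal fluid.

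STATs bind a palindrome called a GAS element, TTCNNNGAA, and the promoters of the 10 genes were searched for it to show which of them carry it. RefSeq promoter windows of GRCm38.p6, from 250 bases before to 50 bases after each annotated start, were matched for 9 of the 10 genes, in 15 windows. Socs2 had no entry. The motif reads the same on both strands, and 8.3% of all 32851 windows of 300 bases held it. The 3 stretches of 30 bases with a match are printed 5′ to 3′ on the strand of the gene, with the motif in capitals.
Cish, chr9:107296654-107296683, plus strand: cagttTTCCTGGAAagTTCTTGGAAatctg
Socs3, chr11:117969501-117969530, minus strand: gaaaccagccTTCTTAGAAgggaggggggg
Prlr, chr15:10223786-10223815, plus strand: gcaaaatgagTTCTAGGAAtaagggatatc
Cish held a pair of GAS elements, the first of them beginning at the annotated start itself and the other 11 bases further on, whereas 0.457% of all windows held 2 or more. The element of Socs3 began 154 bases before its start, and that of Prlr 110 bases before the second of its 3 annotated starts. The windows of Ghr, Lepr, Jak2, Stat3, Stat5a and Stat5b held none, and the same motif with 1 more free base in its middle, which 6.95% of windows held, was found in no window of the 9 genes. A match of letters is a description and not evidence of binding.

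The first annotated start of Prlr opens the gene, and the 250 bases before it are shown because the rise of Prlr is the pattern that the set was chosen on.
Prlr, chr15:10176988-10177237, plus strand: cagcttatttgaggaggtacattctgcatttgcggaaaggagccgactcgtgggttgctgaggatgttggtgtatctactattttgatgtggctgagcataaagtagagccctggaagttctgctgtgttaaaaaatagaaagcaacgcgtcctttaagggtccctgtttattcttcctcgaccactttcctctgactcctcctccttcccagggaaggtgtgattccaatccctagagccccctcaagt
This stretch was 48% G and C with 6 CpG dinucleotides and no GAS element. Values per gene do not show which of the 3 starts, at 10177238, 10223906 and 10293651 on chromosome 15, the reads came from.

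The libraries differed in depth with age. Adult libraries listed 7599 to 11340 genes above 0 and E16.5 libraries 12761 to 13077, and 10.3% to 36.4% of the tested genes were at 0 in an adult library against 3.68% to 4.02% in an E16.5 library. Most low values fall on steps of whole reads, and by these steps 1 read per kilobase was worth 0.114 to 0.325 FPKM in the adult and 0.0638 to 0.0805 FPKM at E16.5. A single gene with the symbol of a microRNA, Mir6236, held 32.7% to 51.7% of the summed FPKM in adult libraries and 13.3% to 15% at E16.5. As FPKM are scaled to transcript length, this is not its share of reads. The median change of the 11601 tested genes, those with a mean above 1 FPKM, was -0.86, so a gene that did not change relative to the others had a negative change on this scale. Ttr, the defining transcript of ChP epithelium, was at 20920 FPKM or more in each adult library and listed at 0 in all E16.5 libraries. A listed 0 in this table may therefore be a value that was not estimated.

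Prlr, the receptor for prolactin, was at 437, 527 and 438 FPKM in adult replicates 1 to 3 and at 1.31, 2.38 and 0.541 FPKM in E16.5 replicates 1 to 3. All adult libraries lay far above all E16.5 libraries, at a mean of 468 ± 51.8 FPKM against 1.41 ± 0.922 FPKM (SD, n = 3). The change was 7.67 (SE 0.40), or 8.53 above the median of all tested genes. Of the rows of the table Prlr ranked 45, 64 and 61 in the adult libraries, and 11064, 9952 and 11501 at E16.5. By the read steps about 76.3 to 362 reads stood behind the E16.5 values if they came from the longest coding transcript, of 9900 bases. For a shorter form the reads would be fewer. Prlr was low but above 0 in each E16.5 library. The gene lies at chr15:10177238-10349180 of mm10 on the plus strand (ENSMUSG00000005268, GENCODE M21), with 12 transcripts of which 7 are coding, and 1.04% of its 50-base stretches are found in other genes as well.

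**Figure D1:**
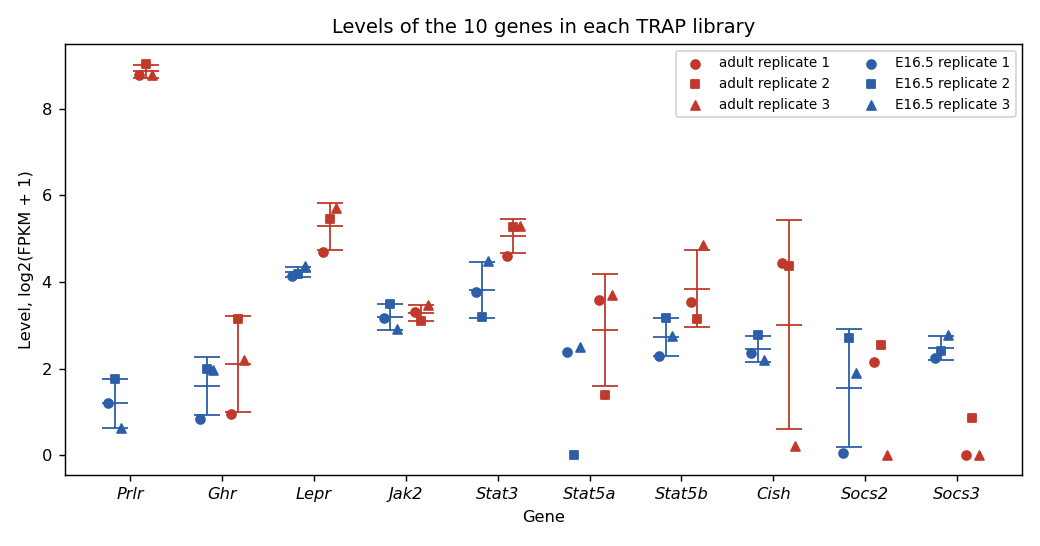
Level of each of the 10 genes in each TRAP library as log2(FPKM + 1), with adult libraries in red and E16.5 libraries in blue, a symbol per replicate, and bars for the mean and SD of 3 libraries where none was listed at 0. Prlr stands apart from the other 9 genes, with all adult libraries at 437 FPKM or more and all E16.5 libraries at 2.38 FPKM or less.

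Lepr, the leptin receptor, was at 24.7, 43.1 and 51.6 FPKM in the adult replicates and at 16.6, 17.2 and 19.6 FPKM at E16.5. Every adult library was above every E16.5 library, at 39.8 ± 13.8 FPKM against 17.8 ± 1.60 FPKM (SD, n = 3). The change of 1.06 (SE 0.41, 95% interval 0.11 to 2.01) did not pass the test, with an unadjusted p of 0.0336 and an adjusted p of 0.129 by limma. The exact permutation p was 0.1, the smallest that 3 against 3 samples can give. The change was 1.91 above the median of all tested genes. With quantile normalization Lepr passed, at an adjusted p of 0.0482 by limma, in a range of 0.0482 to 0.687 over 16 alternatives. Lepr lies at chr4:101717404-101815352 on the plus strand.

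Ghr, the growth hormone receptor, was at 0.940, 7.92 and 3.61 FPKM in the adult replicates and at 0.776, 2.96 and 2.93 FPKM at E16.5. The ages overlapped, and replicate 1 was the lowest library of each age. The change was 0.51 (SE 0.79, 95% interval -1.34 to 2.36; adjusted p = 0.682 by limma), an interval that holds both a rise and a fall of more than 1 on the log2 scale. The gene lies at chr15:3317760-3583492 on the minus strand, on the same chromosome as Prlr.

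The order of the receptors within a library differed between the ages. Of the summed FPKM of the 3 receptors, Prlr made up 94.5%, 91.2% and 88.8% in the adult replicates and 7.03%, 10.6% and 2.34% at E16.5. Lepr made up 5.33%, 7.45% and 10.5% in the adult and 88.8%, 76.3% and 85.0% at E16.5, while its own level was 24.7 FPKM or more in the adult and 19.6 FPKM or less at E16.5. Ghr was the smallest of the 3 in the adult libraries, at 0.203% to 1.37%. At E16.5 it held 4.15% to 13.1%, and it was above Prlr in replicates 2 and 3. In FPKM, Prlr was at 8.49 to 17.7 times Lepr in the adult libraries and at 0.0276 to 0.138 times Lepr at E16.5. These ratios do not change when a whole library is scaled by the same factor, which leaves out quantile normalization. They follow from the rise of Prlr that the set was chosen on.

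**Figure D2:**
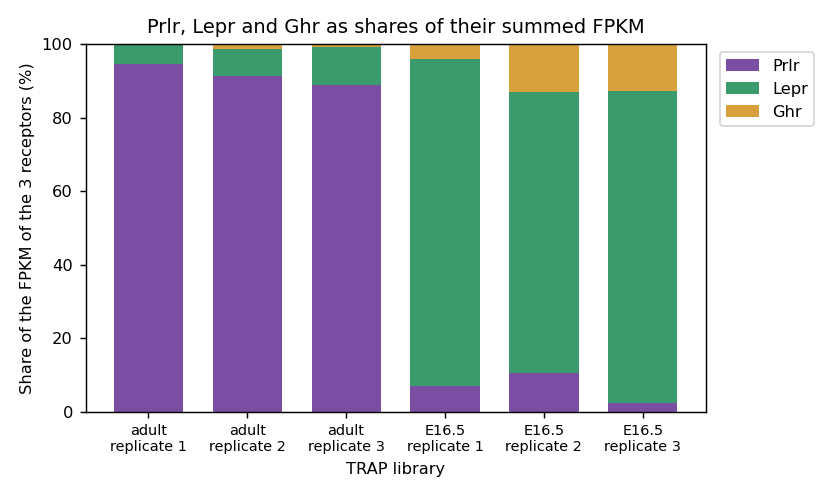
Share of Prlr, Lepr and Ghr in their summed FPKM, in percent, for each of the 6 TRAP libraries. Prlr takes 88.8% to 94.5% of the sum in the adult libraries and Lepr 76.3% to 88.8% at E16.5.

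Jak2, the kinase that serves all 3 receptors, had overlapping levels at both ages, with 8.88, 7.59 and 10.1 FPKM in adult libraries against 8.02, 10.3 and 6.54 FPKM at E16.5. The adult libraries lay within the range of the E16.5 libraries. The mean was 8.84 ± 1.24 FPKM in adult libraries against 8.28 ± 1.88 FPKM at E16.5 (n = 3, SD), with a change of 0.10 (SE 0.51, 95% interval -1.10 to 1.29; adjusted p = 0.908 by limma). In FPKM, Prlr was at 43.6 to 69.5 times Jak2 in the adult libraries and at 0.0828 to 0.232 times Jak2 at E16.5. Jak2 lies at chr19:29251828-29313080 on the plus strand and shares no 50-base stretch with another gene.

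Stat3, the STAT most tied to leptin and to the cytokines of the interleukin-6 family, ranked after Prlr and Lepr among the 10 genes in every adult library. Its levels were 23.4, 37.3 and 38.5 FPKM in adult libraries against 12.6, 8.17 and 21.3 FPKM at E16.5. The ages did not overlap, but the highest E16.5 library was close to the lowest adult library. At 33.1 ± 8.40 FPKM against 14 ± 6.65 FPKM (SD, n = 3), the change of 1.24 (SE 0.48, 95% interval 0.13 to 2.36) had an unadjusted p of 0.0332 and an adjusted p of 0.128 by limma, and did not pass. It lay 2.10 above the median of all tested genes, and the adjusted p was 0.0628 to 0.545 over 16 alternatives by limma.

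Stat5a and Stat5b, neighbours on chromosome 11 whose proteins are nearly alike, carry the signal of prolactin and growth hormone. Stat5a was at 10.9, 1.62 and 12.0 FPKM in the adult replicates and at 4.19, 0 and 4.66 FPKM at E16.5, so that replicate 2 was the lowest of each age and the ages overlapped. The change was 1.26 (SE 0.99, 95% interval -1.04 to 3.57; adjusted p = 0.407 by limma). Stat5b was at 10.6, 7.88 and 28.0 FPKM in the adult and at 3.88, 8.03 and 5.71 FPKM at E16.5, again with overlap. Its change was 1.11 (SE 0.64, 95% interval -0.38 to 2.61; adjusted p = 0.269 by limma).

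The STAT5 genes cannot be fully separated at a read length of 50 bases. Of the 50-base stretches of Stat5a 8.18% are also in Stat5b, and 11.0% of those of Stat5b are in Stat5a, so that how reads were split between them is uncertain. The end of Stat5a (chr11:100859351-100885169, plus strand) overlaps that of Stat3 (chr11:100885098-100939540, minus strand), and Stat5b lies at chr11:100780731-100850724 on the minus strand. The sum of Stat5a and Stat5b, which depends on that split less than either gene but not in full because their transcripts differ in length, was 21.6, 9.50 and 40.0 FPKM in the adult and 8.07, 8.03 and 10.4 FPKM at E16.5. Adult replicate 2 lay within the E16.5 range, and the other adult libraries were above it. With Stat3 added, the sum was 45.0 FPKM or more in every adult library and 31.6 FPKM or less in every E16.5 library.

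Cish encodes CIS, an inhibitor that STAT5 switches on and that competes with it for the receptor. It was at 20.9, 19.6 and 0.167 FPKM in the adult replicates and at 4.11, 5.90 and 3.60 FPKM at E16.5. A single library set the spread: adult replicates 1 and 2 were above all E16.5 libraries, and adult replicate 3 was below all of them, at a level worth about 1.36 reads. With all libraries the change was 0.57 (SE 1.16, 95% interval -2.13 to 3.27; adjusted p = 0.762 by limma). Without adult replicate 3, the library with the fewest genes above 0, it was 1.96 and passed, at an adjusted p of 0.041 by limma, in a range of 0.041 to 0.978 over 16 alternatives. Cish (chr9:107296026-107302784, plus strand) overlaps Gm17040 and Gm17041 on the other strand, and other genes hold 9.35% of its 50-base stretches too.

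Socs2, an inhibitor best known for limiting growth hormone signalling, was at 3.41, 4.88 and 0 FPKM in the adult replicates and at 0.0426, 5.54 and 2.72 FPKM at E16.5. Each age had 1 library at or near 0, adult replicate 3 and E16.5 replicate 1, the latter worth about 1.07 reads. The change was 0.01 (SE 0.99, 95% interval -2.29 to 2.31; adjusted p = 0.995 by limma), and it turned negative under 7 of 15 alternatives. The gene lies at chr10:95385362-95417180 on the minus strand, and 4.58% of its 50-base stretches are shared, mostly with Gm9847.

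Socs3, the inhibitor that STAT3 switches on after leptin and interleukin-6 and that blocks JAK2 at the receptor, had a negative change, the only one among the 10 genes on the deposited scale, whereas Ghr, Jak2, Cish and Socs2 were negative too with libraries scaled to the same sum. It was at 0, 0.805 and 0 FPKM in the adult replicates and at 3.73, 4.33 and 5.89 FPKM at E16.5. The ages did not overlap, and 3 reads would have been worth 0.327, 0.145 and 0.414 FPKM in the adult replicates, below every E16.5 level. The listed 0 of adult replicates 1 and 3 may, as for Ttr, be a value that was not estimated. In these libraries 22% and 36.4% of the tested genes were at 0. The change was -2.20 (SE 0.60, 95% interval -3.60 to -0.80), with an unadjusted p of 0.00707 and an adjusted p of 0.057 by limma, just short of the threshold of 0.05. It was -1.34 relative to the median of all tested genes. It passed when libraries were scaled to the same sum (adjusted p = 0.0252), without the intensity trend (0.034) and without adult replicate 2 (0.043), in a range of 0.0252 to 0.445 over 15 alternatives by limma. The gene lies at chr11:117966079-117970047 on the minus strand and shares no 50-base stretch with another gene.

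The summed FPKM of Cish, Socs2 and Socs3 was 24.3, 25.3 and 0.167 in the adult replicates and 7.88, 15.8 and 12.2 at E16.5. Most of the gap between adult replicates lay in Cish, at 20.9 and 19.6 FPKM in replicates 1 and 2 against 0.167 FPKM in replicate 3. Socs3 was low in every adult library, at 0.805 FPKM or less. In adult replicate 3 the 3 inhibitors were together near 0. Prlr was at 438 FPKM there, and Stat3 and Stat5b were at their highest levels of any library. That library also had the fewest genes above 0 and 73.0 FPKM of oligodendrocyte and astrocyte markers, 58.7 FPKM of it Mbp, against 4.59 and 11.6 FPKM in the other adult libraries. The part of these differences in the low inhibitor values was not tested.

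Of the 9 genes other than Prlr, 0 passed an adjusted p of 0.05 by limma, while 10.9% of all tested genes passed, 2.12% higher and 8.83% lower in the adult. At an unadjusted p under 0.05 there were 3 of 9, Lepr and Stat3 higher and Socs3 lower, against 31.3% of all tested genes, 5.34% higher and 25.9% lower. The same 3 genes did not overlap between the ages, as was the case for 38.4% of all tested genes, 7.39% higher and 31.0% lower. Of the 9 changes 8 were positive and 1 negative, with a median of 0.57 (with libraries scaled to the same sum the changes of Ghr, Jak2, Cish and Socs2 turned negative), whereas of all tested genes 3158 were positive and 8443 negative. Under 16 alternatives the count of calls among the 9 was 0 or 1.

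**Figure D3:**
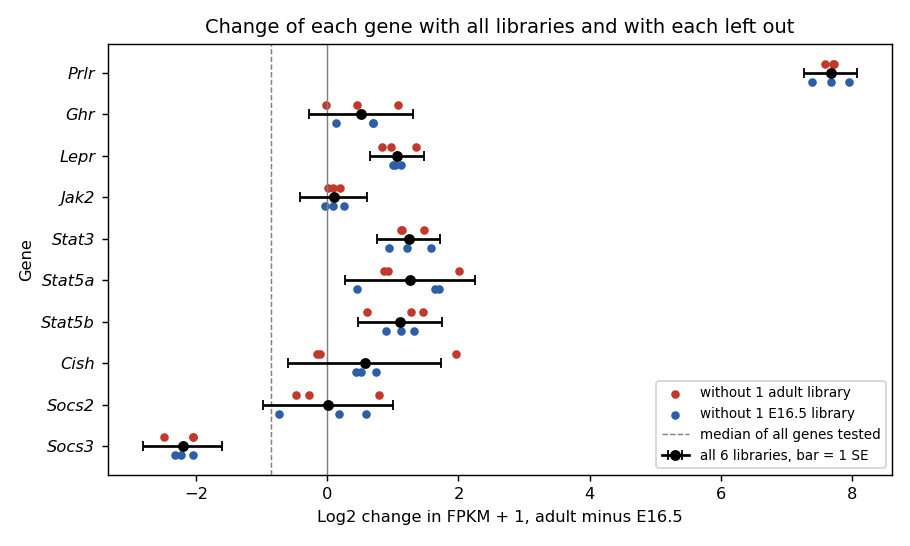
Log2 change in FPKM + 1 (adult minus E16.5) of each gene with all 6 libraries (black, bar of 1 SE) and with 1 adult (red) or 1 E16.5 (blue) library left out, with the median of all tested genes, -0.86, as a dashed line. Prlr stays between 7.38 and 7.95, Cish moves between -0.15 and 1.96, and Socs3 stays between -2.48 and -2.04.

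Hormones and cytokines that act through these receptors and their relatives were mostly listed at 0. Of 19 ligand genes 15 were listed at 0 in all libraries, among them Prl, Gh and Lep, the genes of prolactin, growth hormone and leptin. A single ligand reached the level for testing, Ctf1, the gene of cardiotrophin 1, which acts through gp130 and the LIF receptor. It was at 0, 4.84 and 0 FPKM in the adult replicates and at 10.4, 7.27 and 10.3 FPKM at E16.5, and its change of -2.50 did not pass (adjusted p = 0.0979 by limma) except with the same sum or without adult replicate 2.

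Other receptors of the cytokine families gave 0 calls among 12 tested of 22 genes, with 2 higher at an unadjusted p under 0.05, and a median change of 0.27. Of all tested genes 10.9% were called, and 5.34% were higher at an unadjusted p under 0.05. The most abundant was Ifnar2, a chain of the type I interferon receptor, at 94.9 ± 49.5 FPKM in adult libraries against 29.6 ± 2.50 FPKM at E16.5 (n = 3, SD; change 1.47, adjusted p = 0.0954 by limma), and it passed without adult replicate 3. Il6st encodes gp130, the chain shared by the receptors of the interleukin-6 family, and was singled out after its values were seen. It was at 46.1, 52.0 and 16.4 FPKM in the adult and at 5.90, 9.62 and 9.10 FPKM at E16.5, without overlap, and its change of 1.96 (SE 0.55) had an adjusted p of 0.0618 by limma. Il6st passed under 3 of 16 alternatives, which were median-ratio scaling, quantile normalization and leaving out adult replicate 3.

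Among the other JAKs and STATs 0 of 5 tested genes passed, with a median change of -0.50 and none at an unadjusted p under 0.05. Of all tested genes 10.9% passed, and 31.3% were at an unadjusted p under 0.05 by limma. Jak1, the most abundant of them and a kinase of the gp130 and interferon receptors, was at 19.0 ± 5.35 FPKM in the adult and 27.2 ± 7.64 FPKM at E16.5 (change -0.50, adjusted p = 0.439 by limma). Among other inhibitors, further SOCS and PIAS proteins and tyrosine phosphatases, 0 of 12 passed, against 10.9% of all tested genes. Their median change was -0.86, and 2 were lower at an unadjusted p under 0.05, against 25.9% of all tested genes. Pias2, a SUMO ligase and the most abundant of them, had a change of 0.69 (adjusted p = 0.343 by limma). Pias3, an inhibitor of STAT3 also chosen after its values were seen, was at or near 0 in adult replicates 1 and 3 and at 5.18 FPKM in adult replicate 2, against 13.9, 20.2 and 15.8 FPKM at E16.5 (change -3.25, adjusted p = 0.0517 by limma). It passed under 4 of 16 alternatives, which were both scalings to the same sum, no intensity trend and leaving out adult replicate 2.

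Genes of receptor turnover, which take receptors off the surface or serve the ubiquitin ligases built around SOCS proteins, gave 1 call among 9 tested genes, with a median change of -0.15. Of all tested genes 10.9% were called, and 8.83% were called lower in the adult. Tceb2, the older symbol of Elob (chr17:23824738-23829136, minus strand), encodes elongin B, which joins SOCS proteins to the cullin ligase and also serves other complexes. It was at 245, 301 and 257 FPKM in the adult replicates and at 800, 911 and 521 FPKM at E16.5. The ages did not overlap, and the change was -1.44 (SE 0.28, adjusted p = 0.0234 by limma). Relative to the median of all tested genes the change was only -0.58, and -0.93 to 0.03 over 16 alternatives. The call held in 10 of 16 alternatives. It was lost with quantile normalization, with no intensity trend, and without adult replicate 1 or any one E16.5 replicate, with adjusted p values over all alternatives of 0.00505 to 0.0941.

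Of the adaptors that link these receptors to the Ras and insulin receptor substrate pathways 0 of 11 tested genes passed. The share over all tested genes was 10.9%. The median change of the adaptors was -0.57, and 3 were lower at an unadjusted p under 0.05, as were 25.9% of all tested genes. Ptpn11, which encodes the phosphatase SHP2 and was the most abundant, was at 112 ± 32.7 FPKM in adult libraries against 71.8 ± 5.19 FPKM at E16.5 (n = 3, SD; change 0.60, adjusted p = 0.236 by limma). Grb2, an adaptor to Ras named after its values were seen, was at 4.66, 11.7 and 7.32 FPKM in the adult and at 23.2, 29.1 and 38.0 FPKM at E16.5, without overlap (change -1.85, adjusted p = 0.0524 by limma). It passed under 4 of 16 alternatives, which were a mean above 5 FPKM, the same sum, and leaving out adult replicate 2 or 3.

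Known target genes of STAT3 and STAT5 gave 1 call among 8 tested of 17 genes, with a median change of -0.41. The share called among all tested genes was 10.9%, and 8.83% were called lower in the adult. Ccnd1 (chr7:144929931-144939925, minus strand), which encodes cyclin D1 and drives entry into the cell cycle, was at 0, 2.45 and 0 FPKM in the adult replicates and at 13.6, 17.2 and 8.11 FPKM at E16.5. The ages did not overlap, and the change was -3.15 (SE 0.76, adjusted p = 0.0410 by limma). It rests in part on the listed 0 of adult replicates 1 and 3, which may be a value that was not estimated. The call held in 6 of 16 alternatives, with adjusted p values of 0.0147 to 0.137, and it was lost with both other pseudocounts, no filter, median-ratio scaling, quantile normalization and the replicate block, and without adult replicate 1 or any one E16.5 replicate. Cell cycle markers were also lower in the adult, at a summed 0 to 16.5 FPKM against 19.9 to 43.8 FPKM at E16.5. In the adult this sum was Cdk1 alone, at 0, 4.07 and 16.5 FPKM in replicates 1 to 3. Mki67, Top2a, Ccnb1, Bub1 and Aurka were listed at 0 in every adult library. The part of these markers in the fall of Ccnd1 was not tested.

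Bcl2l1, which encodes the survival protein BCL-XL and was the most abundant of the target genes, was at 71.3 ± 19.7 FPKM in adult libraries against 63.5 ± 4.0 FPKM at E16.5 (n = 3, SD; change 0.13, adjusted p = 0.787 by limma). The other targets went both ways without passing. Bcl6, a repressor, was at 16.4, 8.45 and 22.8 FPKM in the adult and at 6.54, 5.0 and 0 FPKM at E16.5 (change 2.14, adjusted p = 0.153 by limma). Igf1, the growth factor gene through which growth hormone acts in liver, had a change of -2.47 (adjusted p = 0.111 by limma, passing with the same sum), and Pim1, a kinase gene, one of 0.85 (adjusted p = 0.624 by limma). These genes were named after their values were seen. Over all lists 0 genes were called higher and 2 lower of 58 tested, with 3 higher and 10 lower at an unadjusted p under 0.05 and a median change of -0.51. Of all tested genes 2.12% were called higher and 8.83% lower, and 5.34% were higher and 25.9% lower at an unadjusted p under 0.05.

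**Figure D4:**
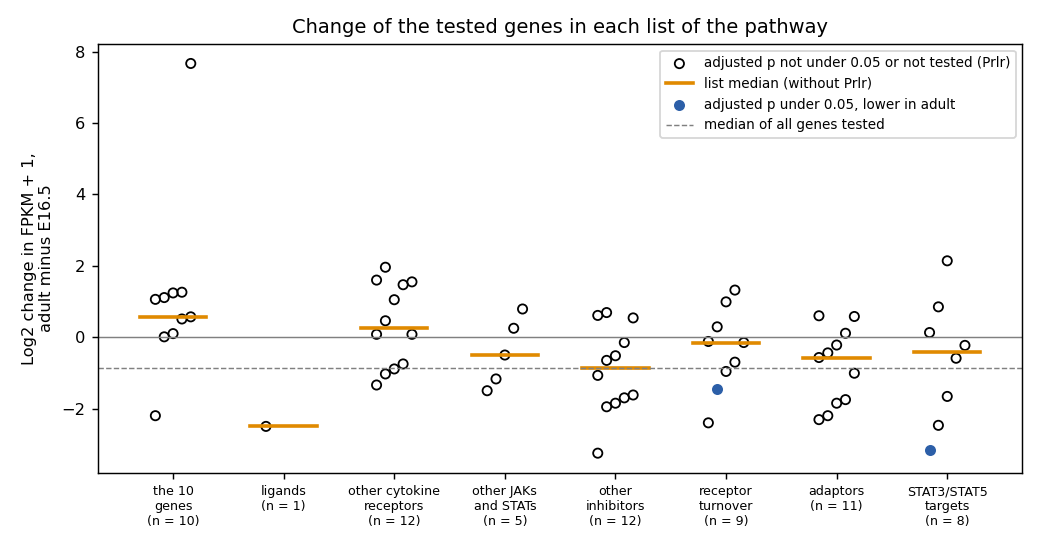
Log2 change in FPKM + 1 (adult minus E16.5) of each tested gene in the 10-gene set and the 7 lists around it, with the median of each list (orange, without Prlr in the set) and the median of all tested genes, -0.86 (dashed). Filled points are Tceb2 and Ccnd1, which passed the test, and the highest point is Prlr at 7.67.

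Among the genes whose levels followed those of Prlr most closely over the 6 libraries were Nefh, Kl, Enpp2 and Itgb8, each gene taken around its own mean on the log2 scale. The root mean square difference from Prlr was 0.73 for Nefh, a neurofilament gene, and 0.84 for Kl, the gene of Klotho. It was 0.92 for Enpp2, which encodes autotaxin, and 1.12 for Itgb8, an integrin chain. Each of these genes was low at E16.5 and high in the adult: Kl was at 554 ± 66.0 FPKM against 7.36 ± 1.48 FPKM, and Itgb8 at 131 ± 6.88 FPKM against 2.11 ± 1.99 FPKM (SD, n = 3). They were also among the genes with the largest rises after Prlr of those detected at both ages, from 6.89 for Nefh to 5.65 for Itgb8, and the likeness and the rise are not independent measures.

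Summed markers of other cells in the tissue were below Prlr in the adult libraries. Those of mesenchyme, endothelium and red blood cells were above it at E16.5, as were those of oligodendrocytes and astrocytes, at 5.66 to 13.5 FPKM. Most of the endothelial sum at E16.5 was Kdr, at 12.3 to 36.7 FPKM, while Pecam1 and Cldn5 were listed at 0 there. Mesenchymal and fibroblast markers summed to 13.3 to 22 FPKM in adult libraries and 58.6 to 69.4 FPKM at E16.5, endothelial markers to 0.489 to 19.0 and 12.7 to 40.8 FPKM, and red blood cell markers to 0 to 6.49 and 56.7 to 388 FPKM. Macrophage markers summed to 0.0695 to 6.82 FPKM in the adult and 0.584 to 8.42 FPKM at E16.5, with C1qc, Cd68 and Aif1 at 0 in every library, and neuronal markers to 0 to 3.24 and 0.142 to 76.8 FPKM. The 12 epithelial markers summed to 39350 to 54540 FPKM in the adult and 3078 to 3575 FPKM at E16.5, where Ttr is listed at 0. Much of the gap between these sums lay in Ttr and Enpp2, the most abundant of them. Enpp2 was at 14890 to 18730 FPKM in the adult and 242 to 303 FPKM at E16.5. Of these 12 genes Ttr, Enpp2, Kl and Kcnj13 were called higher and Otx2 and Foxj1 lower. The call of Ttr rests on its listed 0 at E16.5, which may be a value that was not estimated. Among all tested genes 2.12% were called higher and 8.83% lower. The part of these differences in the changes of Lepr, Stat3 and Socs3 was not tested. In such ribosome pull-downs from pooled tissue, fewer cells of a type, less RNA per cell and a different capture of RNA from untagged cells cannot be told apart. Immediate early genes, which mark handling of tissue, summed to 10.6 to 38.7 FPKM in the adult and 18.4 to 35.8 FPKM at E16.5. By limma 0 of 4 tested genes were called and 0 were at an unadjusted p under 0.05. Over all tested genes these shares were 10.9% and 31.3%.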

How the data were processed

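By the methods, the authors aligned single-end reads of 50 bases to mm10 with STAR (version 2.4.0 in the submitters' processing notes) and calculated FPKM per gene with Cuffquant of Cufflinks. The deposited table holds these FPKM values for 6 samples. The annotation given to Cuffquant is not given in the sources used here. Libraries were made with the SMARTer Pico kit after ribodepletion.

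Ages were taken from the sample labels. The test was limma (version 3.58.1, R 4.3.3) on log2(FPKM + 1), fitted with a trend on intensity and without covariates to the 11601 genes whose mean over all samples exceeded 1 FPKM. Benjamini-Hochberg adjustment was over all of these genes, with a threshold of 0.05. A pseudocount of 1 understates the change of low genes. Exact permutation tests were two-sided. The fit was tested on simulated data. Positions and shared 50-base stretches were taken from GENCODE M21 and promoters from RefSeq. FPKM carry no depth, which was estimated from the steps of low values, which were whole within 0.1 for 65.1% to 82.1% of 35 to 63 values per library, so that read numbers are approximate and cover counting error only. Read numbers of a gene were worked out for its longest coding transcript. Alternatives were other pseudocounts, filters, scalings, no trend, a replicate block and leaving out each library.

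The 10 genes and the lists of pathway and marker genes were chosen with earlier results of these data known. All 10 genes are named, with each list's called and most abundant genes and the 5 tested genes closest to Prlr, of which 1 is not reported here. Beside these, 7 genes were named after their values were seen. No amino acid sequences were used here.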

Additional observations from a re-analysis of the deposited data

How the results depend on the processing

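The rise of Prlr was 7.20 to 8.60 over 16 alternatives, and 8.24 to 10.07 above the median of all genes. Scaling moved that median from -0.86 to -0.58 (median-ratio), -1.57 (same sum of FPKM), -1.14 (same sum without Mir6236) and 0.01 (quantile normalization). A total of 1270 genes were called over all rows, 19.4% of them higher in the adult. This became 3213 with the same sum (3.55% higher), and 34.5% and 53.0% were higher with median-ratio scaling and quantile normalization. Leaving out 1 library gave 43 to 1923 calls, the lowest without E16.5 replicate 2 (57 and 112 without E16.5 replicates 1 and 3) and 687 without adult replicate 1. Depth limits the low genes most in adult replicate 3.

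Of the 9 genes beside Prlr 0 were called, and 0 to 1 with 1 library left out. The count was 1 with the same sum (Socs3), quantile normalization (Lepr), no intensity trend (Socs3), without adult replicate 2 (Socs3) and without adult replicate 3 (Cish). Of the listed pathway genes 2 were called, 10 with the same sum, 1 with pseudocounts of 0.1 and 0.01, without a filter and with quantile normalization, and 0 to 8 with 1 library left out.

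Same-numbered libraries did not deviate together (r of 0.00089, 0.0439 and 0.0150 across genes), and nothing says that the numbers pair samples. With the replicate number as a block 564 genes were called across the table, 0 of the 9 genes and 1 listed pathway gene.

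Several changes turned sign. With 1 library left out their highest values were 1.08 for Ghr, 0.25 for Jak2, 1.96 for Cish, 0.79 for Socs2 and 0.28 for Bcl2l1. Those of Socs2 were -0.12 and -0.75 with pseudocounts of 0.1 and 0.01, -0.46 with the same sum, -0.15 with the same sum without Mir6236, and -0.28, -0.48 and -0.74 without adult replicate 1, adult replicate 2 and E16.5 replicate 1. With a pseudocount of 0.01 Cish was -0.09 and Pim1 -0.71. With the same sum Cish was -0.12, Ghr -0.06, Jak2 -0.66, Pias2 -0.11, Ptpn11 -0.22 and Bcl2l1 -0.69. With the same sum without Mir6236 Jak2 was -0.05 and Bcl2l1 -0.03. Without adult replicate 1 Cish was -0.15, and without adult replicate 2 Cish was -0.11, Ghr -0.02 and Bcl2l1 -0.08. Without E16.5 replicate 3 Jak2 was -0.04, and with quantile normalization Lifr was 0.22 against -1.34. The cause was not tested for any of these.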
